A study of Mus musculus and Rattus norvegicus with 30 samples.

Results

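Carbonic anhydrases are zinc enzymes that interconvert carbon dioxide and water with bicarbonate and a proton, and so buffer pH inside and around cells. The family is split by place: cytosolic enzymes (Car2, Car3, Car7, Car13), a mitochondrial enzyme (Car5b), enzymes held on the outer face of the plasma membrane (Car4, Car12), and the carbonic anhydrase-related proteins (Car8, Car10, Car11), which keep the fold but have lost catalytic activity. In sensory ganglia, carbonic anhydrase activity has long been used as a histochemical mark of large-diameter neurons. The 10 genes described here were taken by symbol from the deposited tables (spelt Car or Ca), and all 10 were listed among 54315 mouse features and among 39281 rat features. They were selected on fold changes after nerve injury, that of rat Car12 among them, so the injury values below are a description and carry no test: where members past the threshold are counted, the share of all features past it is given and nothing is read from the count. The comparisons between strains within sham or within SNI ganglia and between sexes were not named in the rule of choice and are tested. The libraries compared also enter the injury values, and the members were chosen with earlier results of these data known. The p-values of these comparisons are to be read with that limit. The difference between strains in the injury change (the interaction) is built from the injury values and is a description too.

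The tissue was the dorsal root ganglion (DRG), which holds the cell bodies of sensory neurons, from rodents with a nerve injury or a sham operation. In mice the injury was spared nerve injury (SNI), which cuts the common peroneal and sural nerves and leaves the tibial nerve, and sham animals had the nerve exposed only; L3 and L4 DRG of 1 adult animal made up a library at day 28. There were 6 sham and 4 SNI libraries of BALB/c mice and 5 sham and 5 SNI libraries of B10.D2 mice, of both sexes; both are inbred strains. In rats the injury was spinal nerve transection (SNT), in which the left L5 spinal nerve is ligated and cut. Sham animals had the nerve exposed. L5 DRG of 3 male Wistar rats were pooled in each of 4 sham and 4 SNT libraries at day 21. A whole ganglion holds neurons, glia and other cells, so fewer cells of a type and less RNA per cell cannot be told apart, and the mouse ganglia mix neurons with cut and with spared axons.

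Counted reads per library came to 30.0 to 41.9 M in mouse and 12 to 17.9 M in rat. Levels are CPM, the read counts of a gene scaled to library size with TMM factors, and 3 reads, the upper limit that a count of 0 allows, corresponded to 0.0724 to 0.0973 CPM in mouse and 0.163 to 0.249 CPM in rat (counting error only). Of 10 injury genes such as Atf3 and Gal, 10 rose in BALB/c and 9 in B10.D2 SNI libraries, and all 7 that could be tested rose in rat. In rat, sham replicate 4 and SNT replicate 1 stood apart: on the first principal component, which held 71.5% of the variance, they lay at -6.33 and 1.09, whereas the remaining sham libraries ranged from -48.7 to -35.7 and the remaining SNT libraries from 30.6 to 49.9. In mouse, BALB/c sham replicate 50 and BALB/c SNI replicate 49 had the highest summed level of 7 skeletal muscle genes, at 1340 and 527 CPM against 8.46 to 98.5 CPM in the other 18 libraries. Values without these libraries are given beside the results that they changed most.

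Every member was measurable in mouse ganglia, over a wide range of levels. Compared between genes as CPM per kilobase of summed exon length, Car2 was the highest of the 10 in BALB/c sham ganglia, at 31.2 ± 5.36 (SD, n = 6), and in B10.D2 sham ganglia, at 26.5 ± 6.72 (SD, n = 5). Car11, a related protein, came next at 18.1 ± 1.40 and 20.5 ± 1.25, and its libraries overlapped those of Car2 in B10.D2 (19.2 to 22.3 against 19.0 to 35.6) but not in BALB/c (16.0 to 20.1 against 24.2 to 37.4). Car3 stood at 17.0 ± 4.67 in BALB/c and overlapped Car11 there. Car10, a related protein that binds neurexins, was at 8.51 ± 0.905 and 9.45 ± 0.295, and Car13 at 7.12 ± 0.895 and 7.09 ± 0.357; these neighbours overlapped in BALB/c and not in B10.D2. Car12 was the lowest in both strains, at 0.137 ± 0.0217 and 0.183 ± 0.0283 CPM per kilobase. Both strains thus had Car2 first and Car11 second, and the gene whose place in the order moved most between the sham groups was Car8, 9th of 10 in BALB/c and 6th in B10.D2 sham ganglia.

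**Figure D1:**
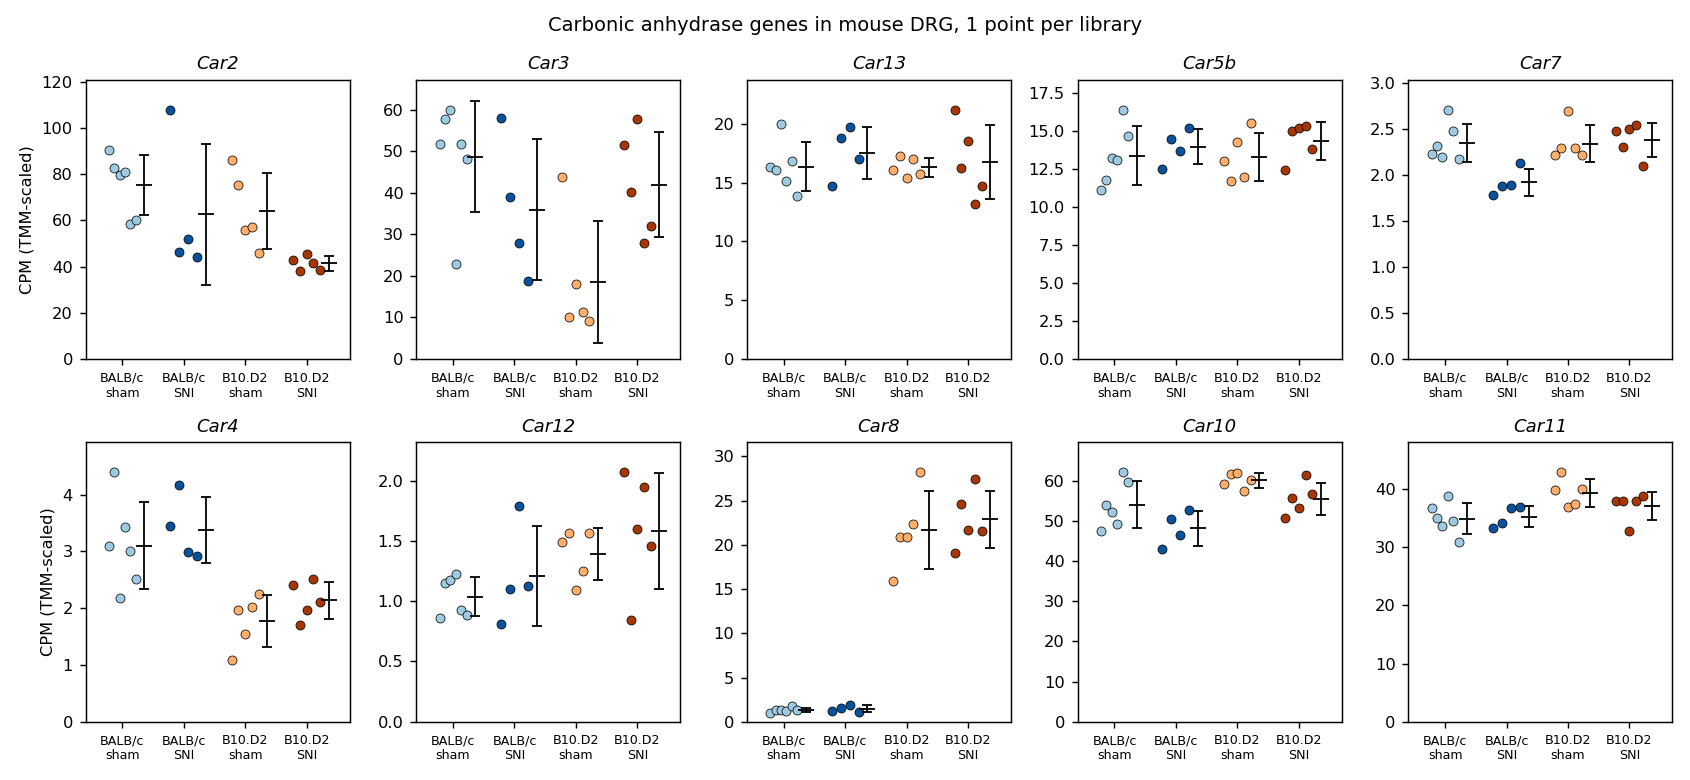
CPM of the 10 carbonic anhydrase genes in mouse DRG, 1 panel per gene and 1 point per library, with the mean and SD of each group beside its points and every axis starting at 0. Car8 lay between 1.01 and 1.94 CPM in all BALB/c libraries and between 15.9 and 28.2 CPM in all B10.D2 libraries.

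The related proteins held the clearest difference between the strains. Car8, which binds the inositol trisphosphate receptor Itpr1 and is best known from cerebellar Purkinje cells, is located on chromosome 4 (GRCm38, 8143362 to 8239041, minus strand). In BALB/c sham ganglia it ranged from 1.01 to 1.73 CPM with a median of 1.35 (6 libraries). In B10.D2 sham ganglia it read 15.9, 20.9, 20.9, 22.4 and 28.2 CPM. After SNI the BALB/c libraries read 1.17, 1.60, 1.94 and 1.13 CPM, and the B10.D2 libraries read 19.1, 24.6, 21.7, 27.4 and 21.6 CPM. Every B10.D2 library lay far above every BALB/c library, in sham and in SNI ganglia alike. The ratio of group means was 16.2 in sham and 15.7 in SNI ganglia. In edgeR's quasi-likelihood test with Benjamini-Hochberg adjustment over all features, the log2 difference was 4.02 (SE 0.157, adjusted p = 2.59e-14) between sham groups and 3.95 (SE 0.183, adjusted p = 5.93e-13) between SNI groups, 2 comparisons that share no library. Reads still gave BALB/c Car8 counts of 34 to 75 per library, far above the limit of 3 reads. Both strains were aligned to the same genome (mm10). Whether their reads map to it equally well was not tested, for Car8 or for the other strain differences below.

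Between sham groups, 4 of the 10 members differed by strain, against 21.6% of all 24685 features tested in this comparison. Car8 and Car11 were higher in B10.D2, and Car3 and Car4 were lower. Car11 differed little: its 5 B10.D2 sham libraries (39.8, 42.9, 36.9, 37.4 and 40.1 CPM) overlapped the 6 BALB/c ones (30.9 to 38.8 CPM, median 34.8), with a log2 difference of 0.17 (SE 0.0578, adjusted p = 0.0419), and the call was lost when any of 11 libraries was left out (20 tried). Between SNI groups, 3 of 10 members differed, against 20.9% of all features: Car8 and Car7 were higher in B10.D2 and Car4 was lower. With only 10 members, these counts lie within few genes of the background shares, and nothing is read from them. The largest difference in each comparison was that of Car8.

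Car4, a glycolipid-anchored enzyme that faces the extracellular space, was lower in B10.D2 ganglia under both operations. In sham libraries it ranged from 2.17 to 4.39 CPM (median 3.06) in BALB/c and read 1.08, 1.96, 1.55, 2.02 and 2.24 CPM in B10.D2. The 2 sham groups overlapped by 1 BALB/c library. After SNI it read 3.44, 4.16, 2.98 and 2.92 CPM in BALB/c and 2.40, 1.71, 1.96, 2.52 and 2.10 CPM in B10.D2, without overlap. The log2 difference was -0.81 (SE 0.187, adjusted p = 0.00287, edgeR) in sham and -0.66 (SE 0.2, adjusted p = 0.0221) in SNI ganglia. The sham call was kept in all 20 fits without 1 library; the SNI call was lost without BALB/c SNI replicate 64 (-0.51) and without B10.D2 SNI replicate 76 (-0.59).

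Car7, a cytosolic enzyme typical of neurons, differed between strains only in the test of SNI ganglia. It read 1.78, 1.88, 1.89 and 2.13 CPM in BALB/c SNI and 2.48, 2.30, 2.50, 2.54 and 2.10 CPM in B10.D2 SNI libraries, where a single library of each strain overlapped the other group. The log2 difference was 0.30 (SE 0.104, adjusted p = 0.0443, edgeR); it was called in 9 of the 20 fits without 1 library not by DESeq2 (adjusted p = 0.109), and not in the fit without BALB/c sham replicate 50 and SNI replicate 49 (0.28, adjusted p = 0.126). In sham ganglia the difference was 0.01 (SE 0.0929, adjusted p = 0.979). The interaction, which compares the change with injury between strains, was 0.30 (SE 0.14, adjusted p = 1) and did not pass, so a strain difference particular to injured ganglia was not shown.

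**Figure D2:**
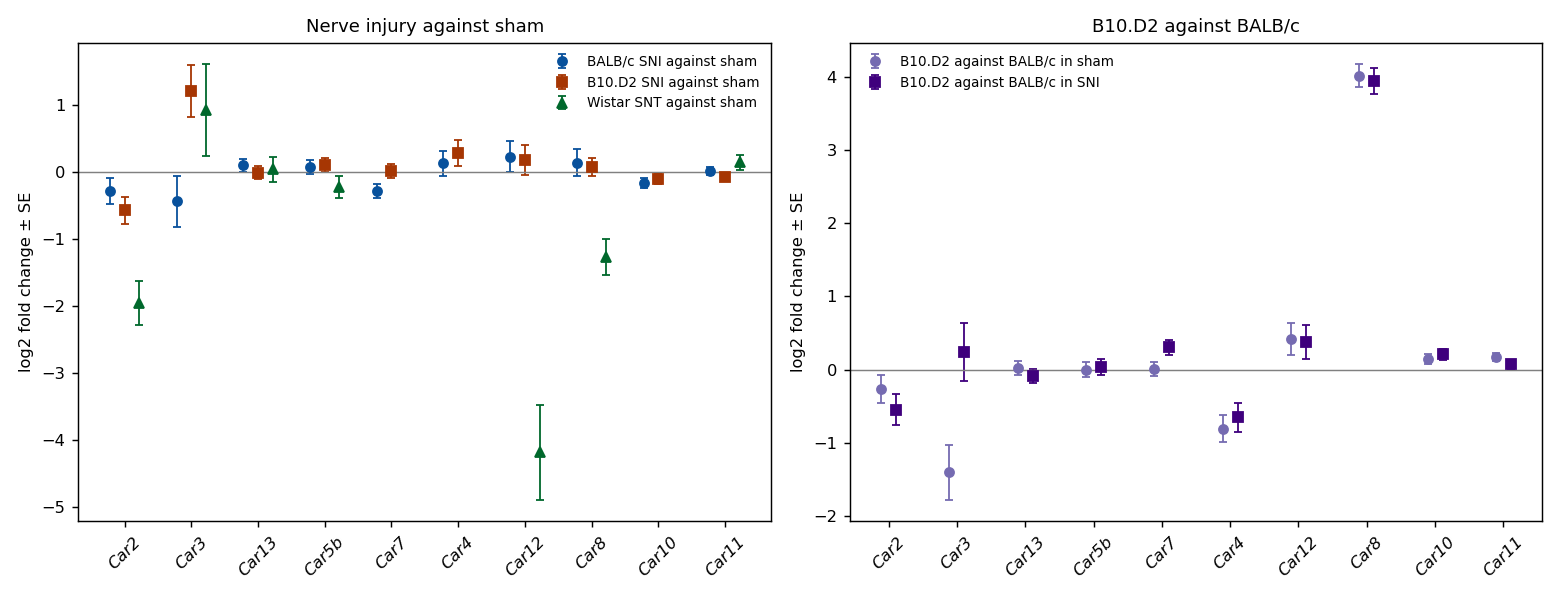
Fitted log2 fold changes with their standard errors for the 10 genes, left for nerve injury against sham in BALB/c, B10.D2 and rat, and right for B10.D2 against BALB/c within sham and within SNI libraries. The rat values of Car2, Car8 and Car12 lie between -4.19 and -1.27, whereas on the right only Car8, near 4, stands far from 0 in both arms.

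Car3, a cytosolic enzyme of low activity that is abundant in fat and in slow muscle, varied widely between mouse libraries. It ranged from 22.9 to 60 CPM (median 51.8) in BALB/c sham libraries and read 43.9, 10.1, 18, 11.4 and 9.10 CPM in B10.D2 sham libraries (replicates 58, 60, 67, 77 and 88). Apart from replicate 58, the B10.D2 sham libraries lay below all BALB/c sham libraries. The log2 difference was -1.41 (SE 0.372, adjusted p = 0.00812, edgeR). Fat and muscle genes differed in the same direction. Of 6 adipocyte markers 3 were lower in B10.D2 sham ganglia and 0 higher (median log2 difference -1.44). Of 7 skeletal muscle genes 5 were lower and 0 higher (median -2.64), beside a median of -0.01 over all features. The summed adipocyte level ranged from 27.8 to 61.2 CPM in BALB/c and from 5.52 to 42.8 CPM in B10.D2 sham libraries. The highest B10.D2 value was that of replicate 58. The summed muscle level ranged from 9.82 to 1340 CPM in BALB/c and from 8.46 to 24.1 CPM in B10.D2 sham libraries. The value of 1340 CPM was that of replicate 50, and the next highest BALB/c sham library had 98.5 CPM. None of these markers was at 0 in every library, and their part in the Car3 difference was not tested. Without BALB/c sham replicate 50 and BALB/c SNI replicate 49 together Car3 stayed called; without B10.D2 sham replicate 58 the difference grew to -2.03.

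**Figure D3:**
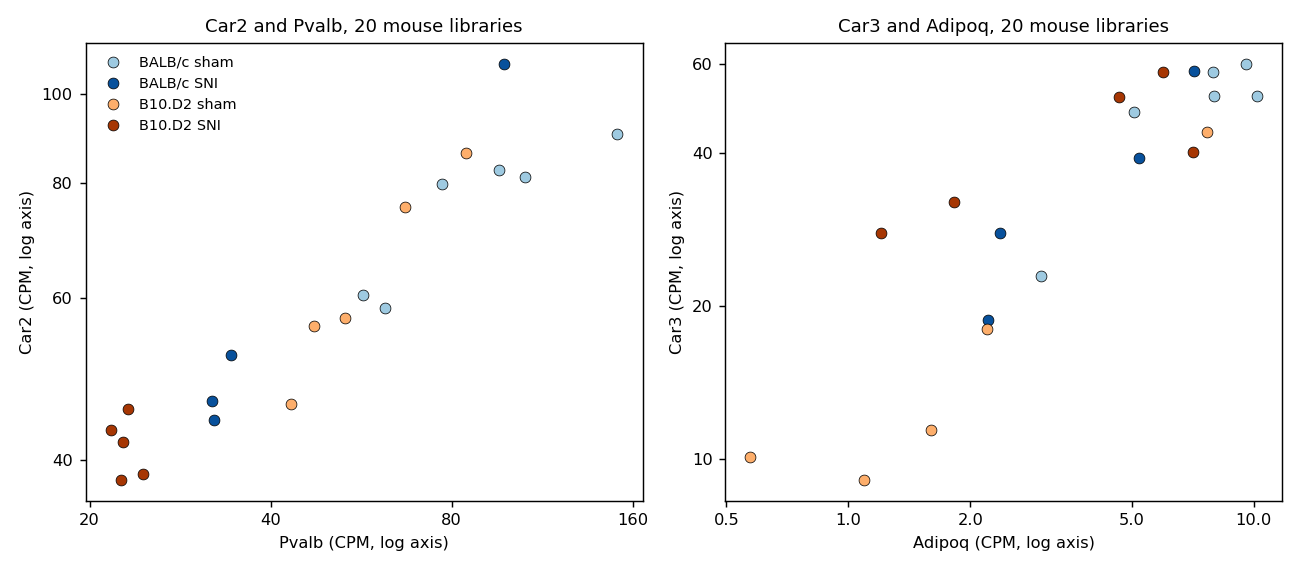
Levels in the 20 mouse libraries on log axes in CPM, Car2 against Pvalb on the left and Car3 against Adipoq on the right, coloured by group. The 5 B10.D2 SNI libraries are the lowest for Pvalb (21.7 to 24.5 CPM) and lie at 38 to 45.4 CPM for Car2, where a BALB/c SNI library at 44.2 CPM falls among them, and the BALB/c SNI library with Car2 at 108 CPM has Pvalb at 97.7 CPM.

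Each member was set beside the genes whose library-to-library variation was most like its own, once group means had been removed. Such a list arises for every member by construction, and the r that chance alone would give was not tested. Likeness is Pearson's r of log2(CPM + 1) over 20 libraries, given as a description among 16449 annotated genes, and libraries share tissue composition and depth. Car2 was most like Pvalb (r = 0.927), the parvalbumin found in large proprioceptive and touch neurons and also in fast skeletal muscle, followed by Olfm4 (0.888), a secreted glycoprotein, and A730089K16Rik (0.886). In the 18 libraries left without BALB/c sham replicate 50 and SNI replicate 49, the pair with the highest muscle sums, these became 0.886, 0.739 and 0.728. Against the summed skeletal muscle genes the r of Car2 was 0.583 over 20 and 0.153 over 18 libraries, and against the summed genes of large-diameter neurons it was 0.705 and 0.671. Car3 was most like Adipoq (0.898), Plin1 (0.894) and Cidec (0.883), a fat hormone and 2 lipid droplet proteins. These stood at 0.888, 0.894 and 0.875 over the 18 libraries. The r of Car3 with the summed adipocyte genes was 0.897 over 20 and 0.887 over 18 libraries. With the summed skeletal muscle genes it was 0.257 and 0.055. Car13 followed Svep1 (0.932), Ctsc and Tgfbr2, and Car10 followed Magi1 (0.927), Celf3 and Prkce. Car8 was most like Pak7 (0.887), Cpne8 (0.877) and Klhl5 (0.82), and Car5b like Myo1a (0.882), Slc7a4 (0.877) and again Klhl5 (0.865). Car11 (Nans, Drap1, D8Ertd738e; 0.795 to 0.808), Car4 (Ctns, Med28, Parp2; 0.708 to 0.786), Car7 (Gm22422, Snora73a, Snora78; 0.789 to 0.799) and Car12 (Dnah14, Sat1, Apool; 0.715 to 0.732) had weaker counterparts. Among the members themselves, Car5b and Car10 varied together most (r = 0.722, and 0.616 over the 18 libraries), and Car2 varied against Car5b (r = -0.66, and -0.657).

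Of the 10 members, 0 passed the threshold after SNI in BALB/c and 0 in B10.D2 (edgeR), where 9.69% and 4.58% of all features did. DESeq2 called 0 in each. In each strain 2 members were below an unadjusted p of 0.05 in edgeR (Car7 and Car10 in BALB/c, Car2 and Car3 in B10.D2). Of all 24685 features tested, 5739 in BALB/c and 4149 in B10.D2 were below it too, and nothing is read from these counts. The median log2 fold change over the members was 0.04 in both strains, beside 0.00 and 0.01 over all features. Car2 is the fast cytosolic enzyme of the family. It ranged from 58.5 to 90.5 CPM (median 80.5) in BALB/c sham libraries and read 108, 46.3, 52 and 44.2 CPM in BALB/c SNI libraries. In B10.D2 it read 86.2, 75.3, 55.9, 57 and 46 CPM in sham and 43.1, 38, 45.4, 41.8 and 38.6 CPM in SNI libraries. All 5 B10.D2 SNI libraries and 3 of the 4 BALB/c SNI libraries lay below every sham library of their strain, and BALB/c SNI replicate 49, at 108 CPM, lay above them all. The fitted log2 fold change was -0.29 (SE 0.201) in BALB/c and -0.58 (SE 0.201) in B10.D2. Without replicate 49 these became -0.65 and -0.61, and without it and BALB/c sham replicate 50 they were -0.62 and -0.63. Replicate 49 held Pvalb at 97.7 CPM against 32.0 to 34.4 CPM in the other 3 BALB/c SNI libraries, and its skeletal muscle sum was 527 CPM against 20.9 to 42.3 CPM. In sham replicate 50, with a muscle sum of 1340 CPM, Pvalb read 151 CPM, the highest of the 20 libraries. Of 8 genes of large-diameter neurons, 5 fell in each strain and 0 rose (median log2 fold change -0.51 and -0.52), among them Calb2 (log2 fold change -3.29 and -2.83) and Nefh (-0.70 and -0.50), and their summed level ranged from 1540 to 1950 CPM after SNI against 2290 to 2740 CPM after sham in BALB/c, and from 1350 to 1690 against 1750 to 2420 CPM in B10.D2. The part of either list in the Car2 values was not tested.

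Car3 had the largest fitted injury value of the mouse members, a 2.26-fold ratio of group means in B10.D2. Its log2 fold change was -0.44 (SE 0.381) in BALB/c, and -0.79 without sham replicate 50 and SNI replicate 49, and 1.21 (SE 0.394) in B10.D2, where SNI libraries read 51.5, 40.2, 57.8, 27.9 and 32.1 CPM; without B10.D2 sham replicate 58 the B10.D2 value was 1.77. The adipocyte sum was 14.6 to 50.1 CPM in BALB/c SNI and 6.64 to 31.6 CPM in B10.D2 SNI libraries, and 0 of the 6 adipocyte genes passed in either strain (edgeR; 0 below an unadjusted p of 0.05). Car7 was at -0.29 (SE 0.101) in BALB/c, where its 4 SNI libraries (1.78 to 2.13 CPM) lay below the 6 sham libraries (2.17 to 2.71 CPM), and at 0.01 (SE 0.0973) in B10.D2; without SNI replicate 70 the BALB/c value was -0.36. Car10 was at -0.17 (SE 0.0721) and -0.11 (SE 0.0705), with -0.21 in BALB/c without sham replicate 50. Car8, in spite of its strain difference, was at 0.13 (SE 0.199) and 0.07 (SE 0.136), and Car12, Car4, Car5b, Car11 and Car13 lay between -0.08 and 0.28 in both strains with groups that overlapped.

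The change with injury was not shown to differ between strains for any member. Of the 10, 0 passed the interaction test (edgeR), where 0.0243% of all features did, and DESeq2 called 0. In edgeR 2 members were below an unadjusted p of 0.05, as were 1073 of all 24685 features. These values are a description, since the interaction is built from the injury values used in the choice. The largest interaction was that of Car3, at 1.65 on the log2 scale (SE 0.549, adjusted p = 1). Between sexes, 0 of 10 members passed (edgeR), where 0.243% of all features did, and DESeq2 called 0. In edgeR 1 member was below an unadjusted p of 0.05, as were 2899 of all 24685 features. That member was Car13, higher in females by 0.21 on the log2 scale (SE 0.0674, adjusted p = 0.202). The other members' differences lay between -0.21 and 0.08.

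In rat L5 ganglia, 7 of the 10 members were tested; Car4, Car7 and Car10 were listed at 0 in all 8 libraries. The housekeeping genes Actb and Ppia were listed at 0 in them too, as were 43.4% of all rat features, so a 0 is not read as absence of the transcript. Of the 7, 3 passed and all 3 were lower (Car2, Car8 and Car12), where 27.4% of 13690 features passed and 15.1% were lower. The choice of the members rests in part on this contrast, and nothing is read from that count.

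Car2 read 139, 147, 112 and 79.3 CPM in sham and 53.4, 17.7, 27.2 and 23.9 CPM in SNT libraries (replicates 1 to 4), and the groups did not overlap. Its log2 fold change was -1.97 (SE 0.327), and -2.51 without sham replicate 4 and SNT replicate 1, the lowest sham and the highest SNT library. Pvalb ran from 163 to 282 CPM in sham libraries, lowest in replicate 4, and read 85.2, 3.49, 9.39 and 13 CPM in SNT libraries. Of the large-diameter genes 5 were tested and 3 fell (Pvalb, Etv1 and Ntrk3). Runx3 and Whrn did not pass and went in opposite directions. Runx3 averaged 3.91 CPM in sham and 5.81 CPM in SNT libraries, and Whrn 31.4 and 24.4 CPM. The sum of the list ranged from 549 to 917 CPM in sham and from 270 to 449 CPM in SNT libraries. Of its 8 genes, 3 were listed at 0 throughout. What part this list has in the Car2 values was not tested.

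Car8 read 18.7, 20.3, 17 and 13.4 CPM in rat sham and 11.9, 5.39, 5.22 and 6.29 CPM in SNT libraries. Every SNT library was below every sham library, and SNT replicate 1 lay closest. The log2 fold change was -1.27 (SE 0.27), and -1.71 without the 2 libraries that stood apart. Rat and mouse ganglia were sequenced from different RNA fractions (polyadenylated and ribosome-depleted), so levels are not compared across species.

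Car12, a membrane-spanning enzyme with an extracellular catalytic domain, was low in rat sham ganglia and at or near 0 after transection. It read 4.81, 4.94, 3.06 and 3.06 CPM in sham libraries and 0.759, 0, 0.111 and 0 CPM in SNT libraries, or 43 to 81 reads against 0 to 12 reads. Only SNT replicate 1 was above the level of 3 reads. The log2 fold change was -4.19 (SE 0.708), and -6.50 without the 2 libraries that stood apart; both depend on the prior count added to libraries at 0. In mouse Car12 stayed between 0.811 and 2.07 CPM in all 20 libraries and had log2 fold changes of 0.22 (SE 0.233) and 0.18 (SE 0.221).

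**Figure D4:**
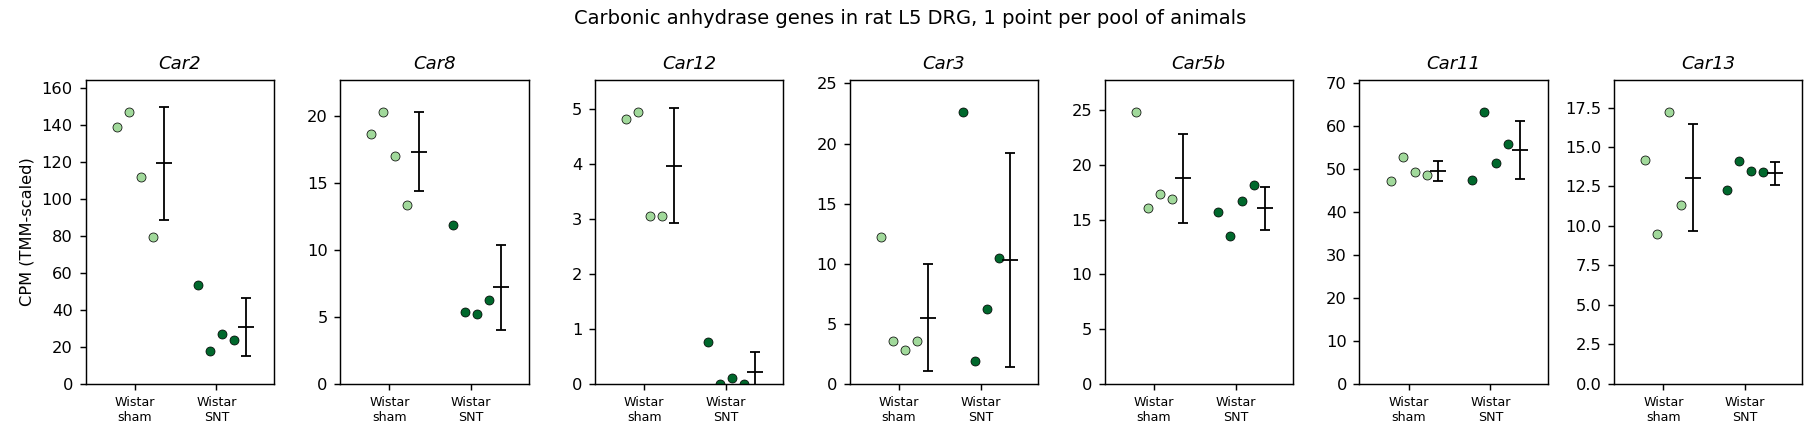
CPM of the 7 carbonic anhydrase genes counted in rat L5 DRG, 1 panel per gene and 1 point per library of 3 pooled animals, with the mean and SD of each group beside its points (bars are cut at 0). SNT libraries lie below all sham libraries for Car2, Car8 and Car12, and the groups overlap for Car3, Car5b, Car11 and Car13.

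The other 4 rat members overlapped between groups. Car5b, Car11 and Car13 had log2 fold changes of -0.23 (SE 0.166), 0.14 (SE 0.108) and 0.03 (SE 0.183), and -0.25, 0.21 and 0.03 without sham replicate 4 and SNT replicate 1. Car3 read 12.2, 3.54, 2.78 and 3.52 CPM in sham and 22.6, 1.91, 6.22 and 10.5 CPM in SNT libraries, with a log2 fold change of 0.92 (SE 0.684) that dropped to 0.04 without sham replicate 4 and SNT replicate 1. The sum of the skeletal muscle genes was highest in the libraries with the highest Car3 of each group. It was 121 CPM in sham replicate 1 and 188 CPM in SNT replicate 1, against 22.1 to 110 CPM elsewhere. In sham replicate 4 it was 23.1 CPM. The adipocyte sum was 2.32 to 9.71 CPM in sham and 8.71 to 41.1 CPM in SNT libraries, with Adipoq listed at 0 in all of them, and the part of either list in the Car3 values was not tested.

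Of the other carbonic anhydrases, Car1, the enzyme of red blood cells, was the one that rose in both mouse strains. It ranged from 0.239 to 1.5 CPM (median 0.296) in BALB/c sham and read 5.71, 2.06, 1.71 and 1.56 CPM in BALB/c SNI libraries; in B10.D2 it read 0.672, 0.573, 0.489, 0.133 and 0.579 CPM in sham and 3.57, 0.893, 3.52, 2.27 and 2.97 CPM in SNI libraries. No SNI library overlapped the sham libraries of its strain. The log2 fold changes were 2.14 (SE 0.501, adjusted p = 0.00813, edgeR) and 2.51 (SE 0.532, adjusted p = 0.00712). Of 5 red blood cell genes 3 were tested and 0 passed in either strain (edgeR; 0 below an unadjusted p of 0.05), with sums of 55.6 to 206 CPM in BALB/c sham, 146 to 199 CPM in BALB/c SNI, 43.2 to 236 CPM in B10.D2 sham and 70.3 to 202 CPM in B10.D2 SNI libraries. Car14, a membrane enzyme, was lower in B10.D2 in sham (log2 difference -0.62, SE 0.188, adjusted p = 0.0207, edgeR) and in SNI ganglia (-0.87, SE 0.213, adjusted p = 0.00482). Car9 (0.0851 to 0.42 CPM) and Car15 (0.587 to 1.40 CPM) passed in no mouse comparison, and Car5a and Car6 were at or under 3 reads in every mouse library. In rat Car6, Car9 and Car14 were tested and did not pass (edgeR), with log2 fold changes of 0.58 to 0.69. All 3 were below an unadjusted p of 0.05, as were 5815 of all 13690 rat features tested, and nothing is read from this count. The Car14 groups did not overlap, with a 1.62-fold ratio of means. Of the remainder Car5a and Car15 were listed at 0, and Car1 was at 0.13 to 0.759 CPM.

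Genes that work with the family were counted by list. Of 21 transporters of bicarbonate, protons, lactate and chloride, 19 were tested in mouse and 0 passed after SNI in BALB/c or in B10.D2 (edgeR; 3 and 1 below an unadjusted p of 0.05; median log2 fold change -0.06 and 0.02). Between sham strains 5 of 19 passed, beside 21.6% of all features; 2 were higher in B10.D2 and 3 lower, led by Slc12a2, a sodium-potassium-chloride importer (log2 difference -0.29, adjusted p = 4.76e-05), and Slc4a4, a sodium bicarbonate carrier (-0.22, adjusted p = 0.00545). In rat 5 of 13 passed, beside 27.4% of all features; 3 rose and 2 fell, with Slc9a3, a sodium-proton exchanger, at 1.87 (adjusted p = 0.0114), Slc16a8, a lactate carrier, at 1.29 (adjusted p = 0.0179) and Slc4a11 at -1.06 (adjusted p = 0.0244). Of the partners of the related proteins, Itpr1, the receptor that Car8 binds, rose in both mouse strains, by 0.71 (SE 0.0907, adjusted p = 2.4e-05) in BALB/c and 0.62 (SE 0.0914, adjusted p = 0.000269) in B10.D2, while Car8 itself did not pass. Nrxn3, a neurexin, was higher in B10.D2 sham (0.63, adjusted p = 1.04e-06) and SNI ganglia (0.78, adjusted p = 3.28e-07) and fell in rat (-0.81, adjusted p = 0.0146). Ptprg and Ptprz1, receptor phosphatases with an extracellular carbonic anhydrase domain, did not pass after injury in mouse (edgeR; with 1 of the pair below an unadjusted p of 0.05 in BALB/c mice, and 0 in B10.D2 mice).

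Of the long noncoding RNAs (LncRNAs) that the study assembled, 4 lay in introns of Car10 (chromosome 11, GRCm38, 93098028 to 93601749, plus strand), and no assembled LncRNA lay within 10 kb of the other 9 members. LncRNA2196, on the same strand (93485079 to 93487474), averaged 1.19 CPM (SD 0.38) in the 6 BALB/c and 0.859 CPM (SD 0.316) in the 5 B10.D2 sham libraries and passed in no comparison. LncRNA6278, on the opposite strand (93410509 to 93421769), was higher in B10.D2 than in BALB/c sham (0.284 ± 0.0961 against 0.0348 ± 0.0382 CPM) and SNI ganglia (0.246 ± 0.182 against 0.0502 ± 0.0297 CPM), with log2 differences of 2.82 (SE 0.571, adjusted p = 0.00085, edgeR) and 2.32 (SE 0.631, adjusted p = 0.0109). The BALB/c means were under the level of 3 reads. Car10 itself averaged 54.1 ± 5.75 and 60.1 ± 1.87 CPM in the sham ganglia of BALB/c and B10.D2, and its strain differences, 0.15 (SE 0.0672, adjusted p = 0.13) and 0.21 (SE 0.0748, adjusted p = 0.0556), did not pass. LncRNA2301 and LncRNA6277 were too low to be tested.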

How the data were processed

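The authors aligned strand-marked paired-end reads with STAR, to mm10 for both mouse strains and to rn6 for rat, and deposited counts per gene made with HTSeq. Mouse RNA was depleted of ribosomal RNA and rat RNA was polyadenylated. The deposited tables of the authors' DESeq2 comparisons hold fold changes and p-values, and only their gene symbols were used here. Mouse samples 59 and 66 were not analysed here. Counts were tested with edgeR 4.0.16 (R 4.3.3; quasi-likelihood, TMM, filterByExpr) with group and sex as terms in mouse and condition in rat, after the study's model, with Benjamini-Hochberg adjustment over all features and a threshold of 0.05; the test is two-sided. Mouse libraries are single animals; p-values measure the spread between these libraries. The model was tested on data simulated with known changes from its own fitted spread. The simulation held no strain or sex effects and no libraries that stood apart, so it cannot show how well the model fits the real libraries. For log2 changes of 1, 73.7% of tested genes were called with the right sign in BALB/c SNI and 51% in rat SNT. For log2 changes of 2 the shares were 96% and 94.8%. There were 5 and 11 false calls in these fits of 24246 and 13452 genes.

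Members and gene lists were chosen with earlier results of these data known. All 10 members are named; from other lists the called genes with the smallest adjusted p are named, and for likeness the 3 genes with the highest r among those with a mean of at least 1 CPM. Exon lengths and positions are from GENCODE M21, whereas the study counted on another annotation release. Car1 and the lists of muscle and fat genes were described further after their values were seen. Alternatives were DESeq2 1.42.0, RLE size factors, other filters, models without sex or per strain, the rat title number as a replicate block, and leaving out libraries. Fits and correlations without both libraries of high muscle content, or without both rat libraries that stood apart, were added after seeing the data.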

Additional observations from a re-analysis of the deposited data

Results flagged for a closer look

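Libraries far from the rest of their group were sought among 54 pairs of a member and a group with Dixon's criterion, which chance meets in about 1 in 20 groups, and 9 were found. In mouse these were Car2 in BALB/c SNI replicate 49 (108 CPM; the others 44.2 to 52), Car3 in BALB/c sham replicate 56 (22.9 CPM; the others 48.1 to 60), Car3 in B10.D2 sham replicate 58 (43.9 CPM; the others 9.10 to 18), Car7 in B10.D2 sham replicate 67 (2.69 CPM; the others 2.22 to 2.29) and Car11 in B10.D2 SNI replicate 78 (32.8 CPM; the others 37.9 to 38.8). In rat they were Car3 in sham replicate 1 (12.2 CPM; the others 2.78 to 3.54), Car5b in sham replicate 1 (24.8 CPM; the others 16.1 to 17.3), Car8 in SNT replicate 1 (11.9 CPM; the others 5.22 to 6.29) and Car12 in SNT replicate 1 (0.759 CPM; the others 0 to 0.111). Beside the Car2 value, replicate 49 had Pvalb at 97.7 CPM and a skeletal muscle sum of 527 CPM. Beside the Car3 values, the adipocyte sum was 27.8 CPM in replicate 56, the lowest of its group, and 42.8 CPM in replicate 58, the highest of its group.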

How the results depend on the processing

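Of 43 recalculated counts of members called that did not rest on leaving out a single library, 39 were within 1.5 times of the reported ones. The exceptions were B10.D2 SNI against sham with no filter beyond 1 count (2 members, Car2 and Car3), with each strain fitted alone (1, Car2) and without BALB/c sham replicate 50 and SNI replicate 49 (1, Car2), and BALB/c SNI against sham without those 2 libraries (1, Car2); the last 2 alternatives were chosen after seeing the data, and the causes were not tested. Leaving out 1 library in turn gave 0 to 1 members called in BALB/c SNI and 0 to 1 in B10.D2 SNI against sham, 3 to 4 between sham strains, 1 to 5 between SNI strains, 0 to 0 for the interaction and for sex, and 3 to 3 in rat. Without BALB/c SNI replicate 64 only Car8 was called between SNI strains, and without BALB/c SNI replicate 70 Car2 and Car10 were added. DESeq2 called Car10 in place of Car7 there. No called fold change of a member changed sign. Car8, Car3 and Car4 between sham strains, Car8 between SNI strains, and Car2, Car8 and Car12 in rat were called in every fit that left out 1 library. The filter of 10 counts in every library left Car12 out in rat, with 2 members called. The first number of the rat library titles is shared by 1 sham and 1 SNT library, but deviations of same-numbered libraries did not go together (r = -0.293 to 0.05); with it as a replicate block 3 members were called, with Car2 at -2.03, Car8 at -1.33 and Car12 at -4.44. Over all features, the number called moved by more than 1.5 times for B10.D2 SNI (1130, and 665 to 1458 under the alternatives), the interaction (6, and 3 to 11), sex (60, and 35 to 244) and rat SNT (3753, and 1483 to 6105, the highest without sham replicate 4 and SNT replicate 1). Depth limits Car12 in rat SNT libraries and LncRNA6278 in BALB/c libraries, at or near 3 reads.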
